A study of Mus musculus with 12 samples.

Results

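RhoGEF and RhoGAP genes were followed in basal cells sorted from around a healing skin wound. The genes were taken by name, as every gene whose symbol starts with Arhgef or Arhgap. Of the 17097 genes that the arrays measured with a probe set of their own, 53 had such a symbol, namely 20 RhoGEF genes, 32 RhoGAP genes and Arhgap20os, a transcript that overlaps Arhgap20.

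The small GTPases of the RhoA, Rac1 and Cdc42 family are molecular switches that bind GTP in their active state and GDP in their inactive state. Guanine nucleotide exchange factors (RhoGEFs) load them with GTP and so switch them on, whereas GTPase-activating proteins (RhoGAPs) speed up GTP hydrolysis and switch them off. RhoA drives actomyosin contraction and stress fibres, Rac1 drives lamellipodia and Cdc42 drives filopodia and cell polarity, so the balance of these regulators is known to set how epidermal cells spread, crawl and keep their junctions. Their activity is largely controlled at the protein level, which the RNA levels given here do not show.

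The study used CD1 mice whose tail skin had been wounded with a 3 mm punch, and compared 3 regions at D4 and at D7 after wounding. Leading edge (LE) cells came from a 4 mm punch around the wound, proliferative hub cells from a 6 mm punch, and control cells from a region of the skin far from the wound, so no group came from unwounded mice. Basal cells of the interfollicular epidermis and infundibulum were sorted as α6-integrin positive and CD34 negative, 300 cells a sample, from pools of 5 mice, and RNA was amplified before hybridisation. Each of the 6 groups of region and day had 2 arrays, labelled as biological replicates and numbered 1 and 2. No source states whether these 2 came from separate pools of mice, so the p-values measure only the spread between arrays.

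Levels are log2 intensities after RMA, a standard background correction, normalisation and summary of the probes. The median over all probe sets lay between 5.40 and 5.47 on the D4 arrays and between 4.25 and 4.28 on the D7 arrays, so a level at D4 was never set against a level at D7, and regions were compared only within a day. Arrays of a group correlated at r of 0.988 to 0.993 across all probe sets. All 8 markers of basal epidermis were above the array median in every group, with Krt14 at 12.55 and 12.56 in LE, 12.50 and 12.58 in the hub and 12.57 and 12.57 in control at D4, whereas 1 to 3 of 11 immune markers were above it. Markers of other epidermal layers and cell types differed between the regions. Of 7 markers of the bulge and outer root sheath, Krt15 and Sox9 were lower in LE at D4 and Krt15 at D7, with Krt15 at −2.48 and −1.88 (log2 differences). Of the same list, Lgr5 was 1.03 (adjusted p = 0.176, limma), Cd34 0.57 and Tcf7l1 0.52 in LE at D4, none of them called. The endothelial gene Tie1 was higher in LE by 1.06 and 1.18. Of 8 suprabasal markers 2 were lower in LE at D4, where the list summed to 13.38 to 13.48 against 13.88 to 13.90 in control. Ivl of this list went the other way, at 8.66 and 7.98 in LE against 7.73 and 7.47 in control. At D7 the sums overlapped, at 12.80 to 12.98 in LE against 12.95 to 12.97 in control. The summed level of the 7 endothelial markers was 8.33 to 8.58 in LE at D7 against 7.25 to 7.56 in control. That of the 5 markers of infundibulum and isthmus was 10.76 to 10.78 against 11.50 to 11.52 on that day. At D4 LE and control overlapped in both sums. The endothelial list summed to 8.87 to 9.46 in LE against 8.15 to 9.41 in control, and the other list to 11.80 to 12.25 against 11.83 to 12.27. Of 6 melanocyte markers Mitf was lower in LE on both days, at −1.06 and −0.89, and the summed level of the list at D4 was 7.86 to 8.02 in LE against 8.38 to 10.04 in control. Of 6 fibroblast markers Dcn was lower in LE at D7, at −2.59, where the list summed to 6.14 to 6.38 in LE against 7.23 to 7.33 in control. The part of these markers' cell types in the differences below was not tested. In these bulk samples fewer cells of a type and less RNA per cell cannot be told apart.

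In total, 29 of the 53 genes lay above the array median on all 12 arrays, 13 on some of the arrays and 11 on none. Arhgef12 had the highest mean level of the family, 11.24, but levels of different probe sets are not comparable with each other, so each gene was compared only with itself. Differences were tested with limma across all 17097 genes, and a gene was called where the Benjamini-Hochberg adjusted p was under 0.05.

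In the LE, 6 of the 53 genes differed from control at D4, 3 higher and 3 lower, which is 11.3% against 14.1% of all genes (8.3% higher and 5.83% lower). At D7, 8 differed, 3 higher and 5 lower, which is 15.1% against 14.6% of all genes (9.25% higher and 5.37% lower). Both shares were near those of all genes, and the median of the family's differences was 0.04 at D4 and −0.04 at D7, against 0.03 and 0.02 over all genes. In the proliferative hub no member differed from control at either day by limma, where 0.328% of all genes were called at D4 and 0.76% at D7. At an unadjusted p under 0.05 the hub counts were 6 members at D4 and 4 at D7, which is 11.3% and 7.55% of the family, where 1876 and 2164 of all 17097 genes (12.7% at D7) passed. By the methods' rule of over 2-fold in each replicate they were 0 at both days, against 0.445% and 0.509% of all genes.

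**Figure D1:**
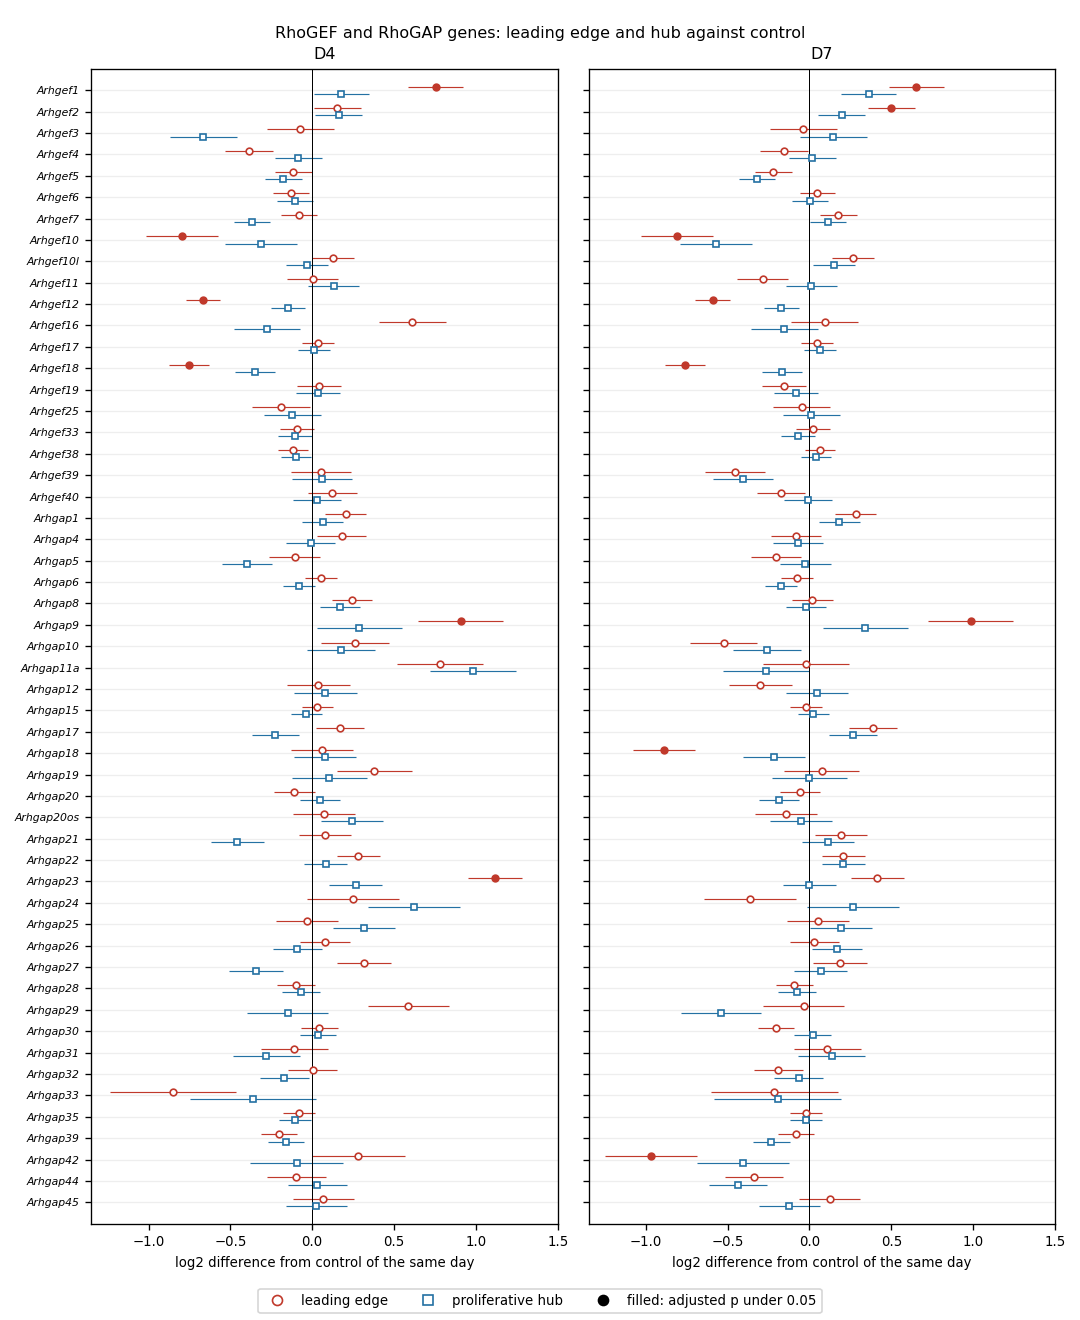
Log2 difference from the control of the same day for all 53 genes (rows), LE in red circles and proliferative hub in blue squares, at D4 (left) and D7 (right). Bars are 1 standard error of the limma fit (2 arrays a group) and filled points passed an adjusted p of 0.05. The 6 filled points at D4 and the 8 at D7 are all LE points, and most other genes lie close to 0.

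Every RhoGEF called in LE against control was one that acts mainly on RhoA and its close relatives, a class that held 13 of the 20 RhoGEFs. Of these 13, 4 were called in LE at D4 (1 higher, 3 lower) and 5 at D7 (2 higher, 3 lower), to be read against 14.1% and 14.6% of all genes, and the class was not tested against the other RhoGEFs. The same 3 genes, Arhgef12, Arhgef18 and Arhgef10, were lower at both days. Arhgef12 (LARG) carries an RGS domain that binds Gα12 and Gα13 and so connects receptors on the cell surface to RhoA. Its level was 11.05 and 11.18 in LE, 11.57 and 11.70 in the hub and 11.73 and 11.84 in control at D4. At D7 it was 10.55 and 10.71 in LE, 11.08 and 11.03 in the hub and 11.23 and 11.21 in control. Both LE arrays lay below every hub and control array of their day. The log2 difference of LE from control was −0.67 at D4 (SE 0.11, adjusted p = 0.00262, limma) and −0.59 at D7 (SE 0.11, adjusted p = 0.00522), that is 0.629 and 0.663 times the control level. A second probe set of Arhgef12 gave −0.89 and −0.67, and one shared with Gm5831 gave −0.76 and −0.95. Without LE replicate 1 of D7 the adjusted p of the D7 value was 0.052.

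Arhgef18 (p114RhoGEF) activates RhoA at epithelial cell junctions. It read 8.89 and 8.72 in LE, 9.08 and 9.34 in the hub and 9.62 and 9.50 in control at D4, and 7.58 and 7.74 in LE, 8.21 and 8.30 in the hub and 8.39 and 8.46 in control at D7. The 3 regions did not overlap on either day, with the hub between LE and control each time. LE was lower than control, at −0.75 at D4 (SE 0.12, adjusted p = 0.00311, limma), and the D7 value was −0.76 (SE 0.12, adjusted p = 0.00325). The other probe sets of Arhgef18, which are dimmer, gave −0.00 and −0.25 at D4 and 0.02 and −0.17 at D7, none of them called.

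Arhgef10 is a RhoGEF known in humans for its link to nerve conduction. Its level was 7.64 and 7.65 in LE, 8.11 and 8.15 in the hub and 8.18 and 8.70 in control at D4, and 6.78 and 6.06 in LE, 6.66 and 6.65 in the hub and 7.27 and 7.18 in control at D7. LE lay below control on both days but overlapped with the hub at D7. The difference of LE from control was −0.80 at D4 (SE 0.22, adjusted p = 0.0382, limma) and −0.81 on D7 arrays (SE 0.22, adjusted p = 0.0357). The second probe set gave −0.76 and −0.74. Of 12 fits with 1 array left out, 9 lost the D4 call (adjusted p up to 0.226, without control replicate 2 of D4) and 5 the D7 call (up to 0.203, without LE replicate 2 of D7). The D7 value was −0.45 without LE replicate 2 of D7 and −1.17 without LE replicate 1.

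Arhgef1 (p115RhoGEF), like Arhgef12 an RGS-domain RhoGEF downstream of Gα12 and Gα13, went the opposite way. It read 8.92 and 8.73 in LE, 8.41 and 8.09 in the hub and 7.98 and 8.17 in control at D4. At D7 it read 7.26 and 6.91 in LE, 6.64 and 6.96 in the hub and 6.45 and 6.43 in control. LE was above control on every array, and the hub overlapped with control at D4 and with LE at D7. The log2 difference of LE from control was 0.76 at D4 (SE 0.17, adjusted p = 0.015, limma) and 0.65 at D7 (SE 0.17, adjusted p = 0.0291), 1.69 and 1.57 times the control level. Of 12 fits with 1 array left out, 2 lost the D4 call (adjusted p up to 0.0912, without LE replicate 1 of D4) and 3 the D7 call (up to 0.203, without LE replicate 1 of D7).

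Arhgef11 (PDZ-RhoGEF) is the third RGS-domain RhoGEF of this kind. It read 9.23 and 9.36 in LE, 9.35 and 9.50 in the hub and 9.05 and 9.54 in control at D4, and 8.71 and 8.62 in LE, 8.90 and 9.02 in the hub and 9.03 and 8.87 in control at D7. Its LE difference was 0.00 at D4 (95% interval −0.35 to 0.35) and −0.28 at D7 (−0.63 to 0.06, adjusted p = 0.29, limma), and it was not called. Of the 3 RGS-domain RhoGEFs, then, Arhgef12 was lower, Arhgef1 higher and Arhgef11 not called in LE at both days.

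Arhgef2 (GEF-H1) is held inactive on microtubules and activates RhoA on release. It read 7.82 and 7.65 in LE, 7.95 and 7.54 in the hub and 7.48 and 7.69 in control at D4, with all 3 regions overlapping. At D7 it read 6.85 and 6.87 in LE, 6.63 and 6.48 in the hub and 6.35 and 6.37 in control, with no overlap. The difference of LE from control was 0.15 at D4 (adjusted p = 0.616, limma) and 0.50 at D7 (SE 0.14, adjusted p = 0.0444), and the D7 call was lost in 6 of 12 fits with 1 array left out (adjusted p up to 0.156, without LE replicate 1 of D7) and in 4 of 9 other settings. These values are from the brightest probe set. A second one, which is nearly as bright, was higher in LE on both days, by 1.07 at D4 (adjusted p = 0.039 over all probe sets paired with 1 gene, limma) and 1.15 at D7 (adjusted p = 0.0289), and its D4 value was 0.57 without control replicate 1 of D4. Arhgef5, which activates RhoA and binds Src kinases, was not called, at −0.12 and −0.22 in LE (SE 0.11 each).

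**Figure D2:**
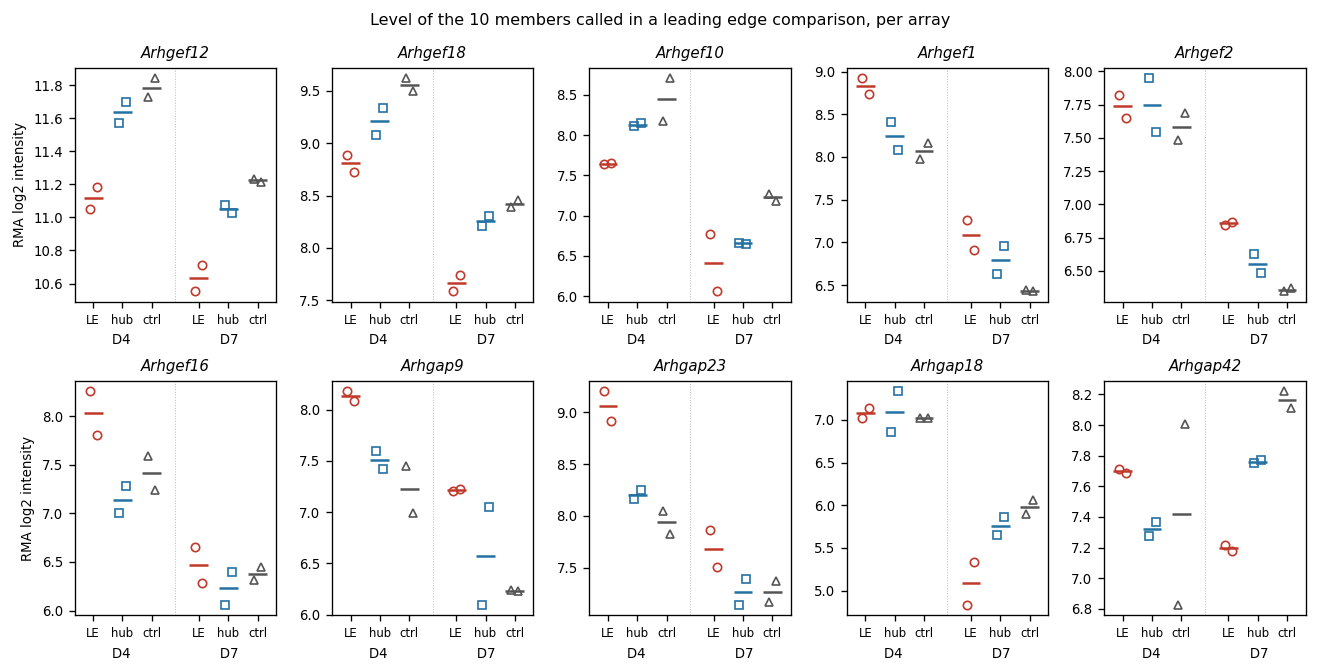
RMA log2 intensity on each array of the 10 genes called in LE against control or against the hub, with LE as red circles, proliferative hub (hub) as blue squares and control (ctrl) as grey triangles, D4 left and D7 right of the dotted line. Horizontal bars are the means of 2 arrays, vertical axes differ between panels, and levels at D4 and D7 are not comparable. At D4 the LE points are separate from hub and control for Arhgef12, Arhgef18, Arhgef10, Arhgef1, Arhgef16, Arhgap9 and Arhgap23.

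The promoters of the 3 RhoGEFs that were called on both days and have a RefSeq window are shown because these genes were called on both days, 2 lower and 1 higher. RefSeq (GRCm38.p6) windows, 250 bases before to 50 after a start, were found for 40 of the 53 genes, 66 windows in all, and none was given for Arhgef10 or Arhgap9. Motifs were read on both strands. The ETS core CCGGAA stood in 15.2% of the members' windows against 14.9% of 32851 windows of all genes, the AP-1 site TGANTCA in 6.1% against 7.8%, and the TEAD site GGAATG in 9.1% against 14.7%. The ETS and TEAD motifs can share the bases GGAA. The window of Arhgef1 at chr7:24902736-24903035 (plus strand, GC 72.0%), that of Arhgef12 at chr9:43105669-43105968 (minus strand, GC 79.7%) and the second window of Arhgef18 at chr8:3392758-3393057 (plus strand, GC 58.3%) read 5′ to 3′ as follows, with the ETS core on either strand in capitals. Arhgef1 and Arhgef18 have 2 windows each, of which the one with an ETS match is shown. The other one of Arhgef1 (chr7:24904096-24904395, GC 64.0%) and the other one of Arhgef18 had 0 ETS matches.
Arhgef1: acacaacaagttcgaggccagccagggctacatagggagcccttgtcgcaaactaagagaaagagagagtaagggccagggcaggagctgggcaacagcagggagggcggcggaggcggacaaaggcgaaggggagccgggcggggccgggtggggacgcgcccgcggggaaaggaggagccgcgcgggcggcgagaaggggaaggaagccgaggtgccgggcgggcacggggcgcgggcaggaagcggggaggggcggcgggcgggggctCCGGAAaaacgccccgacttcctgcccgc
Arhgef12: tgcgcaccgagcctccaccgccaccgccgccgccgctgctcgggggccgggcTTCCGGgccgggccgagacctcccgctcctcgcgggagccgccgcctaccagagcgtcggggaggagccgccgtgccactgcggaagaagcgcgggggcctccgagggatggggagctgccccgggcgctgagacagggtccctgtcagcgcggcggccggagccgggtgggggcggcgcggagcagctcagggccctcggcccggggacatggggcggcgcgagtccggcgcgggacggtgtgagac
Arhgef18: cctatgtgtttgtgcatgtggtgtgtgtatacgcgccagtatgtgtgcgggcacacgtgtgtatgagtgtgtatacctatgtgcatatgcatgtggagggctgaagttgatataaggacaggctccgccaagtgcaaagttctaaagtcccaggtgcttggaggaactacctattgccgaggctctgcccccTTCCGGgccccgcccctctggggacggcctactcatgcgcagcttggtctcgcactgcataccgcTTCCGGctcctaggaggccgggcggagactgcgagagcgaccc
The windows of Arhgef1 and Arhgef12 held 1 match each and this window of Arhgef18 held 2, whereas neither AP-1 nor TEAD letters were present in these 3. The letters are thus shared by genes that were higher and genes that were lower in LE, at a share in the family close to that of all promoters, and a match is not evidence of binding.

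Of the 4 measured RhoGEFs that act mainly on Rac, Cdc42 or RhoG, none was called in LE against control at either day, and their differences ran from −0.39 (Arhgef4) to 0.61 (Arhgef16) at D4 and from −0.15 to 0.18 at D7. Arhgef7 (β-Pix), an exchange factor for Rac1 and Cdc42 at focal adhesions, read 9.10 and 8.98 in LE, 8.80 and 8.71 in the hub and 9.15 and 9.10 in control at D4, and 8.28 and 8.12 in LE, 8.24 and 8.04 in the hub and 7.99 and 8.06 in control at D7. Its LE difference was −0.08 (95% interval −0.33 to 0.17) at D4 and 0.18 (−0.07 to 0.42) at D7. The hub arrays of Arhgef7 lay below the other arrays at D4, at −0.37 from control (SE 0.11, adjusted p = 0.221, limma), which was not called.

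Among the RhoGAPs, 2 of 32 were called in LE at D4, both higher, and 3 at D7, 1 higher and 2 lower. The largest difference of the family at D4 was that of Arhgap23, a close relative of the Golgi and junction protein Arhgap21. It read 9.20 and 8.91 in LE, 8.16 and 8.25 in the hub and 8.05 and 7.83 in control at D4, and 7.86 and 7.50 in LE, 7.15 and 7.39 in the hub and 7.17 and 7.37 in control at D7. At D4 both LE arrays stood apart from the other 4, and at D7 they were still the highest. The difference from control was 1.12 at D4 (SE 0.16, adjusted p = 0.00163, limma), 2.17 times the control level, and 0.41 at D7 (SE 0.16, adjusted p = 0.129). Arhgap23 at D4 was the only member past the methods' rule of over 2-fold in each replicate, which took 3.82% of all genes there and 3.34% at D7, where no member passed, and the call held without any 1 of the 12 arrays (highest adjusted p = 0.0155). Its second, dimmer probe set gave 0.29 (adjusted p = 0.219) at D4.

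Arhgap9, a GAP for Rac and Cdc42 known from blood cells, was higher on both days. It read 8.18 and 8.08 in LE, 7.60 and 7.42 in the hub and 7.45 and 6.99 in control at D4, and 7.21 and 7.23 in LE, 6.10 and 7.05 in the hub and 6.24 and 6.23 in control at D7. LE lay above all hub and control arrays of its day. The difference from control was 0.91 at D4 (SE 0.26, adjusted p = 0.0445, limma), and at D7 it was 0.98 (SE 0.26, adjusted p = 0.0316). Of 12 fits with 1 array left out, 9 lost the D4 call (adjusted p up to 0.231, without control replicate 2 of D4) and 4 the D7 call (up to 0.132, without LE replicate 1 of D7). Of 9 other settings, 4 lost the D4 call, among them the mean of all probe sets, and 1 lost the D7 call. With quantile normalisation of all arrays neither day was called. The other probe sets of Arhgap9 gave 0.00 to 0.52 at D4 and 0.20 to 0.49 at D7, none of them called. Beside it, none of the 11 immune markers was called in LE, Ptprc (CD45) was near the lowest intensities of the D4 arrays (3.30 to 3.38) at 3.86 and 3.81 in LE against 3.92 and 3.79 in control at D4, and the summed immune level was 8.33 to 8.44 in LE against 8.55 to 8.72 in control at D4 and 7.22 to 7.37 against 7.31 to 7.77 at D7. Arhgap9 overlaps Gli1 in RefSeq, and Gli1 differed by −0.01 at both days.

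Of the 8 RhoGAPs that act mainly on RhoA and its close relatives, none was called in LE at D4 and 1 was lower at D7. This was Arhgap18, a GAP for RhoA that limits stress fibres. It read 7.02 and 7.14 in LE, 6.86 and 7.33 in the hub and 7.02 and 7.02 in control at D4, where the regions overlapped. At D7 it read 4.84 and 5.33 in LE, 5.65 and 5.86 in the hub and 5.89 and 6.06 in control, with LE below the hub and the hub below control. The difference of LE from control was 0.06 at D4 (adjusted p = 0.913, limma) and −0.89 at D7 (SE 0.19, adjusted p = 0.0124), and 2 of 12 fits with 1 array left out lost the D7 call (adjusted p up to 0.101, without LE replicate 1 of D7).

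Arhgap42 (GRAF3), a GAP for RhoA with a BAR domain that is known for lowering vascular tone, was the other gene lower in LE at D7. It read 7.71 and 7.68 in LE, 7.27 and 7.37 in the hub and 6.83 and 8.01 in control at D4, and 7.22 and 7.18 in LE, 7.75 and 7.77 in the hub and 8.22 and 8.11 in control at D7. The D7 regions were in order with no overlap, whereas at D4 the control arrays lay on both sides of the LE arrays. The difference of LE from control was 0.28 at D4 (SE 0.28, adjusted p = 0.644, limma), and at D7 it was −0.97 (SE 0.28, adjusted p = 0.047). Without control replicate 2 the D4 value was 0.87 (adjusted p = 0.00292), and the D7 call was lost in 10 of 12 fits with 1 array left out (adjusted p up to 0.174, without control replicate 1 of D7). Of 9 other settings, 0 lost the D7 call. The second probe set of Arhgap42 gave −0.07 at D4 and −0.25 at D7.

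Arhgap35 (p190A RhoGAP), a major RhoA GAP of epithelia and a substrate of Src, lay close to control. It read 9.38 and 9.37 in LE, 9.31 and 9.38 in the hub and 9.41 and 9.50 in control at D4, and 8.43 and 8.39 in LE, 8.48 and 8.35 in the hub and 8.39 and 8.48 in control at D7. The LE difference was −0.08 (95% interval −0.30 to 0.14) at D4 and −0.02 (−0.24 to 0.20) at D7. Its paralog Arhgap5 (p190B RhoGAP) differed by −0.11 and −0.21 (SE 0.16 each), and neither value was called. The other probe sets of Arhgap5 gave 0.18 and 0.54 at D4 and 0.03 and −0.00 at D7, none of them called. Arhgap29, a RhoA GAP linked in humans to cleft lip, read 5.15 and 5.92 in LE, 4.51 and 5.08 in the hub and 4.81 and 5.08 in control at D4, a difference of LE from control of 0.59 (SE 0.25, adjusted p = 0.164, limma), and its D7 value was −0.04. Without LE replicate 1 of D4 the D4 value was 0.97. The second probe set of Arhgap29 gave 0.08 at D4 and −0.31 at D7, neither of them called.

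The members known from dividing cells were not called. Arhgap11a, a RhoA GAP of the cell cycle, read 8.95 and 9.09 in LE, 9.26 and 9.17 in the hub and 8.07 and 8.41 in control at D4. Every LE and hub array was above control, by 0.78 in LE (SE 0.26, adjusted p = 0.084, limma) and 0.98 in the hub (SE 0.26, adjusted p = 0.17). At D7 Arhgap11a read 8.54 and 8.79 in LE, 8.61 and 8.23 in the hub and 9.15 and 8.22 in control. The D7 differences were −0.02 in LE and −0.27 in the hub, with control arrays on both sides of the LE arrays. In the D4 arrays the summed level of 16 genes of G2/M and mitosis was 13.00 to 13.03 in LE, 13.09 to 13.12 in the hub and 11.58 to 12.64 in control. In the D7 arrays it was 11.90 to 12.28 in LE, 11.99 to 12.26 in the hub and 11.72 to 12.45 in control. The part of cycling cells in the Arhgap11a values was not tested. Arhgap19, a GAP of mitotic cells, differed in LE by 0.38 and 0.07 (SE 0.23 each), and Arhgef39 by 0.05 and −0.46 (SE 0.18 each). Without control replicate 2 of D4 the D4 value of Arhgap19 was 0.75 (adjusted p = 0.0494).

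The 34 genes not described one by one ran from −0.85 (Arhgap33) to 0.32 (Arhgap27) in LE at D4 and from −0.52 (Arhgap10) to 0.39 (Arhgap17) at D7, with lowest adjusted p of 0.12 and 0.114 (limma). Their medians were 0.04 and −0.04. The value of Arhgap33 rested on 1 array, as it was −0.08 without control replicate 2 of D4. In the hub they ran from −0.67 (Arhgef3) to 0.62 (Arhgap24) at D4 and from −0.44 (Arhgap44) to 0.27 (Arhgap17) at D7, with lowest adjusted p of 0.23 and 0.341.

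LE was next set against the hub. The paper describes both punches as enriching for their zone, so neither region is a pure population of migrating or dividing cells. The summed level of the 16 G2/M and mitosis genes was 13.00 to 13.03 in LE against 13.09 to 13.12 in the hub at D4. At D7 it was 11.90 to 12.28 against 11.99 to 12.26. At D4, 3 members differed (2 higher in LE, 1 lower), 5.66% against 4.76% of all genes (2.61% higher and 2.15% lower), and at D7 1 was lower, 1.89% against 2.73% of all genes (1.33% higher and 1.4% lower). At D4 Arhgap23 was higher in LE than in the hub by 0.85 (SE 0.16, adjusted p = 0.0167, limma) and Arhgef12 was lower, at −0.52 (SE 0.11, adjusted p = 0.0222). The third was Arhgef16, an exchange factor for RhoG and Cdc42 that binds Eph receptors. It read 8.25 and 7.81 in LE, 7.01 and 7.28 in the hub and 7.59 and 7.24 in control at D4, and 6.66 and 6.29 in LE, 6.06 and 6.39 in the hub and 6.31 and 6.45 in control at D7. LE was the highest region at D4 and overlapped with both others at D7. Its difference from the hub was 0.89 at D4 (SE 0.20, adjusted p = 0.0369) and from control 0.61 (adjusted p = 0.079). At D7 Arhgef18 was lower in LE than in the hub, at −0.59 (SE 0.12, adjusted p = 0.0368), and −0.40 (adjusted p = 0.108) at D4. Of 12 fits with 1 array left out, Arhgap23 lost its call in 3 (adjusted p up to 0.111, without LE replicate 1 of D4), Arhgef12 in 3 (up to 0.168, without hub replicate 2 of D4), Arhgef16 in 5 (up to 0.212, without LE replicate 1 of D4) and Arhgef18 in 6 (up to 0.227, without LE replicate 1 of D7). By the methods' fold rule no member passed at either day, against 1.78% and 1.16% of all genes, and a fit to the arrays of the day alone called no member at D4.

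The days were set beside each other in LE, whose D4 and D7 comparisons share no array. Of the 9 members called on either day, 5 were called on both and in the same direction (Arhgef1 and Arhgap9 higher, Arhgef10, Arhgef12 and Arhgef18 lower), 9.43% of the family against 8.57% of all genes. Across the 53 genes the D4 and D7 differences of LE correlated at r = 0.544, against 0.786 over all 17097 genes, and those of the hub at 0.099 against 0.508. These are descriptions across genes, which are not independent replicates. By the probe sets used, Arhgap23 was called only at D4 and Arhgap18, Arhgap42 and Arhgef2 only at D7, whereas the second probe set of Arhgef2 was called on both days. The change of the LE difference, D7 minus D4, was −0.70 for Arhgap23 (adjusted p = 0.454, limma), −0.95 for Arhgap18 (adjusted p = 0.389), −1.25 for Arhgap42 (adjusted p = 0.451) and 0.35 for Arhgef2 (adjusted p = 0.745), so that none of the 4 was shown to differ between the days. In all, 0 members were called for a change between days in LE against control, where 0.0292% of all genes were (0.00585% upwards and 0.0234% downwards), and 4 had an unadjusted p under 0.05, 7.55% against 7.82% of all genes. For the change in LE against the hub the counts were again 0 and 4, with 0.0175% of all genes called, all 3 of them downwards, and 5.11% at an unadjusted p under 0.05.

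**Figure D3:**
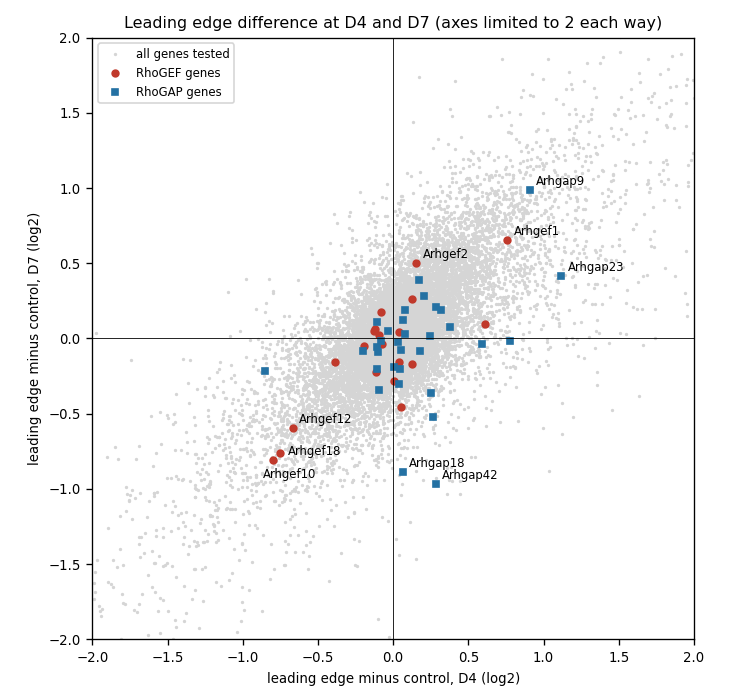
Log2 difference of LE from control at D4 (horizontal) and at D7 (vertical) for RhoGEF genes (red circles), RhoGAP genes (blue squares) and all genes tested (grey points), with the 9 genes called on either day named. Arhgef10, Arhgef12 and Arhgef18 lie together at lower left, Arhgef1 and Arhgap9 at upper right, and Arhgap18 and Arhgap42 at −0.89 and −0.97 on the D7 axis. Genes beyond 2 on either axis are not shown.

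More than 1 probe set was available for 33 of the members, 87 probe sets in all. The 2 probe sets of Arhgef12 and those of Arhgef10 were called on both days with the same sign. For Arhgef18, Arhgap9, Arhgap23, Arhgap18 and Arhgap42 only the brightest probe set was called in LE, and for Arhgef2 a second, similarly bright one was called on both days.

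**Figure D4:**
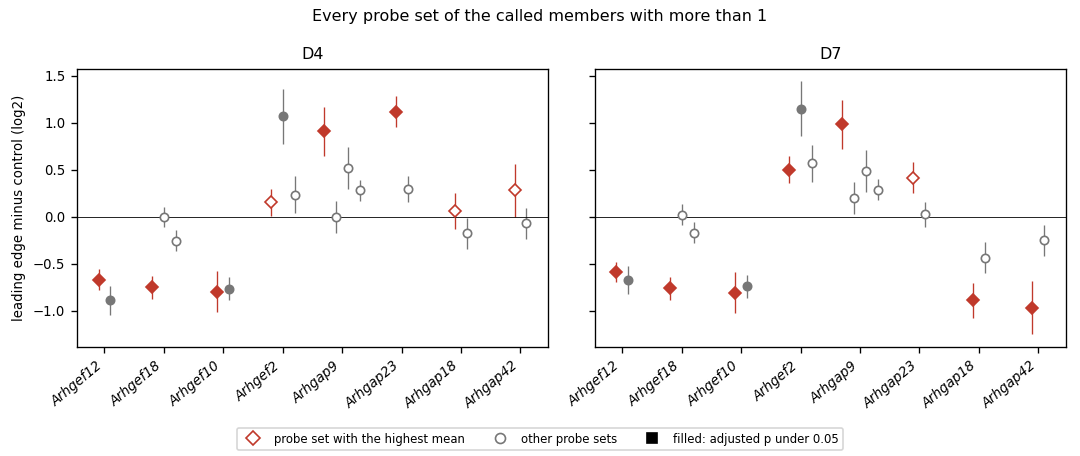
Log2 difference of LE from control for every probe set of the called genes that have more than 1, at D4 (left) and D7 (right), with the probe set of highest mean as red diamonds and the others as grey circles. Bars are 1 standard error and filled symbols passed an adjusted p of 0.05 over all probe sets. Symbols of Arhgef12 and Arhgef10 lie together, and those of Arhgef18, Arhgap9 and Arhgap23 are spread.

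Of the GTPases that these proteins regulate, Rhoa differed in LE by −0.03 at D4 and 0.11 at D7 (SE 0.12 each), Rac1 by 0.20 and 0.25 (SE 0.11) and Cdc42 by 0.18 and 0.19 (SE 0.09), and none of the 3 was called. Of 17 GTPases of the RhoA, Rac1 and Cdc42 family measured, 1 was higher and 1 lower at each day. These counts are to be read against 14.1% of all genes called at D4 and 14.6% at D7. The higher one was Rhof, of filopodia, at D4 (0.96, SE 0.24, adjusted p = 0.0271, limma) and Rhoc at D7 (0.66, SE 0.15, adjusted p = 0.0162). Rhoc was dim, at 3.90 and 4.18 in LE and 3.18 and 3.59 in control at D7, below the array medians of that day. The lower one was Rnd3, an atypical member without GTPase activity that opposes RhoA and ROCK1 and acts with p190 RhoGAPs, at −1.07 (adjusted p = 0.0242) and −1.14 (adjusted p = 0.0187). The GDP dissociation inhibitor Arhgdib, which keeps these GTPases in the cytosol, was higher by 0.68 (adjusted p = 0.0069) and 1.12 (adjusted p = 0.000598), with levels of 11.28 and 11.11 in LE, 11.01 and 10.68 in the hub and 10.61 and 10.42 in control at D4. At D4 the difference of Rhof was 0.47 without LE replicate 1 and that of Rnd3 −0.63 without control replicate 1.

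Exchange factors with other names changed in both directions as well. Of 40 measured, 3 were higher and 4 lower in LE at D4, and 1 was higher and 4 were lower at D7. Spata13 (Asef2, for Rac1 and Cdc42) was higher by 1.45 at D4 (adjusted p = 0.0141, limma), and Plekhg1 by 1.22 and 0.94. Dock8, a Cdc42 exchange factor, was lower, at −1.32 and −1.67, and Akap13, a RhoA exchange factor, at −0.76 and −0.50. Of 24 other RhoGAPs, 2 were higher at D4 and none was lower, and at D7 2 were higher and 3 lower. Racgap1, of the cytokinetic furrow, was higher by 1.35 at D4 and by 0.74 without control replicate 1 of D4, and its values stand beside the G2/M sums at D4 given above, whose part was not tested. Myo9b, a motor with a RhoGAP domain, was higher by 0.77 and 0.59. Dlc1, a RhoA GAP, was lower, at −1.01 at D7 (adjusted p = 0.0182) and its relative Stard13 at −0.57.

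Of 28 effectors of RhoA, Rac and Cdc42, 3 were higher and 2 lower in LE at D4, and 2 were higher and 3 lower at D7. Diaph3, a formin that builds actin filaments, and Pak2, a kinase activated by Rac and Cdc42, were higher by 0.63 and 0.60 at D4. Cdc42ep5 was lower, at −0.83 and −0.91, and Pak3 at −1.31 at D7. None of these lists had a member called in the hub against control. The calls in LE were 7 of 40 and 5 of 40 for the other RhoGEFs, 2 of 24 and 5 of 24 for the other RhoGAPs and 5 of 28 on both days for the effectors, to be read against 14.1% and 14.6% of all genes.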

How the data were processed

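RNA of sorted basal cells was hybridised to Affymetrix Mouse Genome PM strip arrays, 12 arrays in 6 groups. The authors deposited RMA-normalised log2 intensities, with no version given in the sources at hand. Of 45141 probe sets, 28898 were paired with 1 gene by the platform annotation, 551 with several genes and not used for the tests. For each gene its brightest probe set, by the mean of 12 arrays, was taken (17097 genes). No intensity filter was applied.

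Group means were fitted with limma 3.58.1 in R 4.3.3 over all arrays and genes, without a replicate block (6 residual degrees of freedom), with Benjamini-Hochberg adjustment over all genes. The fit was tested on simulated data. Precision is limited by 2 arrays a group. Genes described one by one were those called with the largest differences in each comparison, the genes of the highest mean level and a set of well-studied regulators and cell division genes. The members and lists were chosen with earlier results of these data known. Other settings tried were each array left out, all probe sets or their mean, 2 scalings, a dim filter, array weights, another prior, the arrays of one day, the replicate block and the methods' fold rule. RefSeq promoter windows (GRCm38.p6) were searched for 3 motifs.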

Additional observations from a re-analysis of the deposited data

Results flagged for a closer look

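A probe set of Arhgef2 (GEF-H1) that the comparisons did not use, because its mean over the 12 arrays was slightly below that of the one used, was higher in LE than in control by 1.07 at D4 (SE 0.29, adjusted p = 0.039 over all probe sets paired with 1 gene, limma) and by 1.15 at D7 (SE 0.29, adjusted p = 0.0289). It read 7.60 and 7.90 in LE, 7.63 and 7.32 in the hub and 6.19 and 7.18 in control at D4, and 7.43 and 7.12 in LE, 6.67 and 6.28 in the hub and 5.96 and 6.30 in control at D7. Only unused probe sets called above control were flagged, and this one was read on the same 12 arrays as the others. Unused probe sets of Arhgef12 (−0.89 and −0.67) and Arhgef10 (−0.76 and −0.74) were called lower in LE at D4 and D7. For the same comparisons of Arhgef2, the probe set used gave 0.15 and 0.50 and a further one 0.23 and 0.57. Without control replicate 1 of D4, its lowest array that day, the 1.07 of the unused probe set became 0.57. Which transcripts of Arhgef2 the 3 probe sets read was not tested.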

How the results depend on the processing

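Of the 18 called values of the genes described, none changed sign in any setting. With 1 array left out, 68 of 216 recomputed values lost the call, and in the other settings 16 of 162 did. The count of members called in LE against control ran from 4 to 6 at D4 and from 2 to 8 at D7 with 1 array left out, the lowest at D7 without LE replicate 1 and without control replicate 2 of that day. The count in LE against the hub ran from 0 to 4 at D4 (main count 3, lowest without hub replicate 2 of D4) and from 0 to 2 at D7 (main count 1). The count for a change of the LE difference between the days ran from 0 to 1, the 1 being Arhgap42 without control replicate 2 of D4 (-1.84, adjusted p = 0.00483, limma). All other counts stayed at 0. For LE against the hub at D7 the count was 0 with the mean of all probe sets, 2 with a trended and robust prior and 2 with the arrays of the day alone, and at D4 it was 0 with the arrays of the day alone. By the methods' fold rule the counts were 1 in LE against control at D4, 0 at D7, and 0 and 0 against the hub. The cause of these shifts was not tested, beyond fewer arrays where arrays were left out. The calls against control of Arhgap23, Arhgef12 and Arhgef18 at D4 and Arhgef18 at D7 held in every limma fit of the probe set used. They also held with the mean of a gene's probe sets, but other probe sets of Arhgef18 and Arhgap23 were not called by themselves. With 1 array left out, Arhgap42 at D7 lost its call in 10 of 12 fits, Arhgap9 and Arhgef10 at D4 in 9 each and Arhgef2 at D7 in 6. Of the 9 other settings, 0 lost the call of Arhgap42, 4 that of Arhgap9, 2 that of Arhgef10 and 4 that of Arhgef2. In turn, 12 of 153 uncalled results were called in some setting, among them Arhgap11a in LE at D4 with the arrays of the day alone (adjusted p = 0.0331).

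With replicate number as a block within the day, 7 members were called in LE against control at D4, 7 at D7, 4 against the hub at D4, 2 against the hub at D7 and 0 in the hub against control. Under this block the LE value of Arhgap29 at D4 (0.59) had an adjusted p of 0.0192 and its value against the hub (0.74) one of 0.016, and Arhgef16 against the hub at D4 and Arhgef2 at D7 were not called. Deviations of same-numbered arrays correlated at 0.170 to 0.245 at D4 and at 0.0023 to 0.0666 at D7. All 3 correlations were over 0.1 at D4 and none at D7, with 2 numbers a day, and the arrays were taken to share only a number. Without a measure of signal over background, dim genes could not be set apart from unexpressed ones: a filter on dim genes kept 41 of the 53 members.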
